A study of Mus musculus with 24 samples.

Results

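The CXCR3 chemokine axis was followed in mouse calf muscle through 7 genes of the 54532 counted: the ligands Cxcl9 and Cxcl10, their receptor Cxcr3, the T cell chemokine Ccl5, and the interferon-gamma gene Ifng with the receptor chains Ifngr1 and Ifngr2. The 7 were listed by name and chosen by their measured levels in these same 24 libraries, so their own differences between the groups are given as a description, with no p-value. All 7 were found by Ensembl identifier and symbol.

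RNA from the left gastrocnemius of wild-type C57/BL6 mice was sequenced in 24 libraries, 4 for each combination of sex and condition. Controls were sedentary and received 2 injections of 20 µl saline at pH 7.2 ± 0.1 into the muscle, 5 days apart. Sedentary pain mice received acid of pH 5.0 ± 0.1 on the same schedule, with 6 min of electrically evoked contraction right before the second injection. Active pain mice had running wheels for 8 weeks before that same procedure, and the time label was 24 h in all groups. The labels give no age. Acid and contraction were always given together, so their effects cannot be told apart, and running was compared only between the pain groups, since no group ran without pain. Total counts lay between 17612139 and 34039699 per library, no 2 libraries held identical counts, and the muscle fibre markers (Ckm, Acta1, Myh4, Myh1, Ttn, Tnnt3) were detected in every library. The labels do not state in words that each library is a separate mouse, so p-values measure the spread between these samples.

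Interferon-gamma is secreted mainly by activated T cells and natural killer (NK) cells. It binds a receptor of an IFNGR1 and an IFNGR2 chain, and signalling through the kinases JAK1 and JAK2 then switches on IRF1, antigen presentation genes and the chemokines CXCL9 and CXCL10. These chemokines attract cells that carry CXCR3, mostly activated T and NK cells, which can secrete more interferon-gamma. CCL5 attracts T cells, monocytes and NK cells. Injured muscle is known to take up neutrophils and macrophages before T cells.

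Cxcl9 (ENSMUSG00000029417) and Cxcl10 (ENSMUSG00000034855) are neighbours on the minus strand of chromosome 5, at chr5:92321347-92328079 and chr5:92346638-92348889 in GRCm38, with 18558 bases between them. The third gene of the cluster, Cxcl11, is annotated as a pseudogene in C57BL/6 and lies 10654 bases beyond Cxcl10. The 250 bases before the start site of each ligand gene, taken from RefSeq on GRCm38.p6 and written 5′ to 3′ on the gene's strand, are shown because the neighbours were not always high in the same libraries. Capitals mark matches to an interferon-stimulated response element core (ISRE: GAAA, 2 bases of any kind, GAAA) and to the NF-kappaB consensus.
Cxcl9, chr5:92328080-92328329, minus strand: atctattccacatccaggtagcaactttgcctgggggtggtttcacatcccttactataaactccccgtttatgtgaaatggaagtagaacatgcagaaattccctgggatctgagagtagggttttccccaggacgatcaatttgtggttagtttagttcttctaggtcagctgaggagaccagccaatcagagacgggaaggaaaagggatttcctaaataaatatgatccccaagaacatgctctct
Cxcl10, chr5:92348890-92349139, minus strand: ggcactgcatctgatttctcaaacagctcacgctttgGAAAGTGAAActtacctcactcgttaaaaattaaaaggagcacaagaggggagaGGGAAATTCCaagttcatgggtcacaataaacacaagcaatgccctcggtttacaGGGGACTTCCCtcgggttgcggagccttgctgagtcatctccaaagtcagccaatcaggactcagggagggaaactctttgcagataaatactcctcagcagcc
Both strands were searched in windows that also held the 50 bases after the start, 300 bases in all. Cxcl10 held 1 ISRE core, 213 bases before the start, and 3 NF-kappaB matches that began 159, 104 and 103 bases before it, the last 2 of which overlap. Cxcl9 held no match to these letters in its window. Of 32544 such windows of all genes, 3.45% held the ISRE core and 8.49% the NF-kappaB consensus. The gamma-activated site (GAS, TTCNNNGAA) was in 8.33% of windows and in 1 member window, that of Ifng, at its far end from the start. Ifngr2 held 1 NF-kappaB match, and Cxcr3 and Ifngr1 held none of the 3 motifs. A match is a stretch of letters and not a shown binding site. Windows were found for 6 of the 7 genes, and Ccl5 is named only.

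Cxcl9 and Cxcl10 were high in female sedentary pain muscle, and mainly in 2 of its 4 libraries, replicates 3 and 4, which were singled out after their values were seen. Levels are in CPM, which sets each count against the total of its library, corrected by trimmed mean of M-values factors. In bulk muscle, fewer cells of a type and less RNA per cell cannot be told apart. Cxcl9 was at 4.05, 3.68, 199 and 246 CPM in female sedentary pain replicates 1 to 4. Female controls held 0.780, 1.05, 6.09 and 8.10 CPM, and female active pain muscle 1.08, 1.31, 2.70 and 3.47 CPM. The sedentary pain values fell inside the range of the controls in 2 libraries and far above it in the other two, and all 4 lay above those of active pain. The fitted log2 fold change of Cxcl9 was 4.78 ± 1.33 (SE, n = 4 a group) for sedentary pain over control, -0.91 ± 1.22 for active pain over control and -5.69 ± 1.39 for active over sedentary pain. Without replicates 3 and 4 the first of these was -0.07 and the last -0.83, so the higher level rested on those libraries. They also held the highest summed T cell markers of all 24, at 49.2 and 75.8 CPM, where no other library passed 4.46 CPM; their part in the result was not tested.

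Cxcl10 reached 3.29, 33.5, 75.2 and 120.2 CPM in female sedentary pain muscle. Female controls held 0.433, 0.21, 0.742 and 1.96 CPM, below every sedentary pain value. Active pain females held 0.392, 0.953, 12.3 and 1.19 CPM, so that replicate 3 stood above the rest and overlapped with sedentary pain. The log2 fold change of Cxcl10 was 6.03 ± 1.32 for sedentary pain over control, 2.09 ± 1.20 for active pain over control and -3.94 ± 1.17 for active over sedentary pain. It was 4.38 for sedentary pain over control without replicates 3 and 4, while active pain over control went to -0.02 without active pain replicate 3. The opposite strand of Cxcl10 carries Art3, which shares 133 of its 2252 exon bases. Art3 ranged from 66.8 to 121.6 CPM in female sedentary pain muscle and from 145 to 196 CPM in female controls. The use of strand in counting is not given in the sources used here, so the reads on those bases cannot be assigned.

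In males the ligands stayed far below the 2 high female libraries. Male controls had Cxcl9 at 1.19, 1.05, 1.09 and 0.975 CPM. Sedentary pain males had 2.46, 0.870, 7.81 and 3.28 CPM and active pain males 9.73, 11.8, 1.54 and 1.90 CPM. Each active pain male was thus above each control male, whereas sedentary pain overlapped with both. Its log2 fold changes were 1.75 ± 0.73 for sedentary pain over control, 2.53 ± 0.74 for active pain over control and 0.78 ± 0.70 between the pain groups. The first was 1.06 without sedentary pain replicate 3, and the last ran from 0.27 without active pain replicate 2 to 1.49 without sedentary pain replicate 3. Cxcl10 was at 0.307, 0.734, 0.373 and 0.472 CPM in control males. It reached 10.5, 0.402, 3.13 and 1.06 CPM in the sedentary pain males, compared with 3.19, 8.36, 0.684 and 0.475 CPM in those that had run. In each male pain group 2 libraries were above 3 CPM, and the others were at 1.06 CPM or less. The log2 fold changes of Cxcl10 were 3.0 ± 1.08, 2.74 ± 1.08 and -0.26 ± 0.96 in the same order. Single libraries decided their size: the first fell to 1.68 without sedentary pain replicate 1 and the second to 1.61 without active pain replicate 2, and the third was 1.05 and -1.39 without these same libraries.

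**Figure D1:**
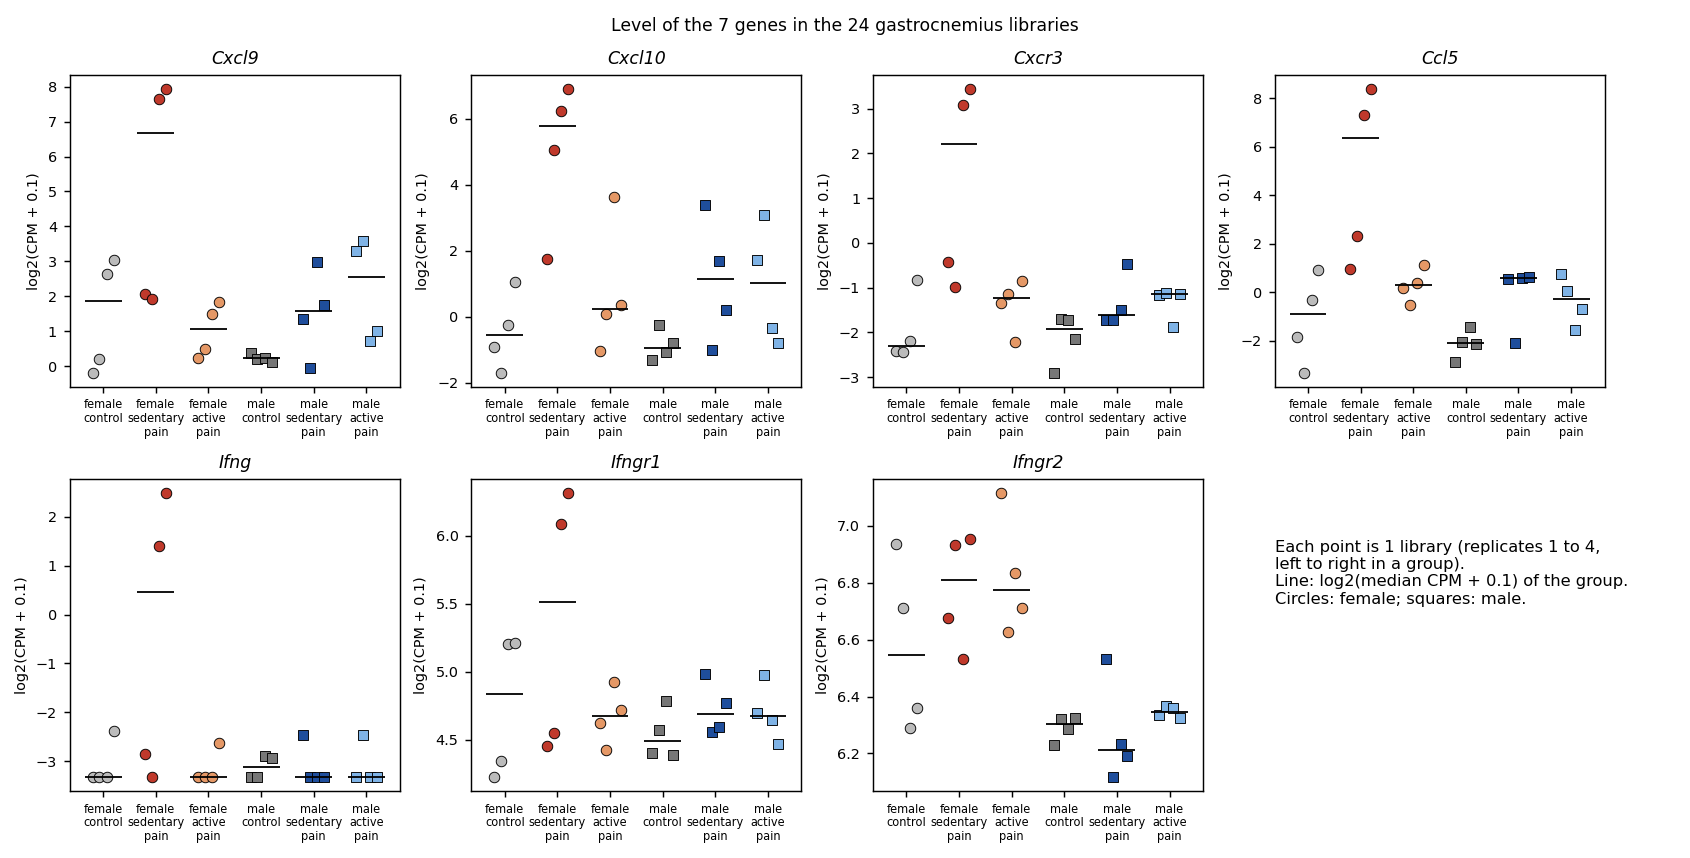
Level of each gene, as log2(CPM + 0.1), in every library by group; each point is 1 library and each line the group's median. Replicates 3 and 4 of female sedentary pain stand above all other libraries for Cxcl9, Cxcl10, Cxcr3, Ccl5, Ifng and Ifngr1 (Cxcl9 at 199 and 246 CPM), while Ifngr2 spans 69.3 to 138.6 CPM over all groups.

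Set per kb of exon, which allows levels of different genes to be compared, Cxcl9 exceeded Cxcl10 in 20 of the 24 libraries. The 4 exceptions were female sedentary pain replicates 1 and 2, female active pain replicate 3 and male sedentary pain replicate 1, with log2 ratios of Cxcl10 over Cxcl9 of 0.12, 3.61, 2.61 and 2.51. In the 2 female libraries with the highest ligand levels the ratio was -0.98 and -0.61. Cxcl10 therefore led by more than 4-fold in 3 libraries, and these were the 3 libraries of all 24 with the highest summed neutrophil marker level (S100a8, S100a9, Ly6g, Csf3r, Retnlg, Cxcr2), at 252, 112 and 299 CPM. The other libraries lay between 0.629 and 78.0 CPM for that sum, and male active pain replicate 2, at 78.0, had a ratio of -0.08. This order was noticed in the data, and the part of neutrophils in it was not tested.

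**Figure D2:**
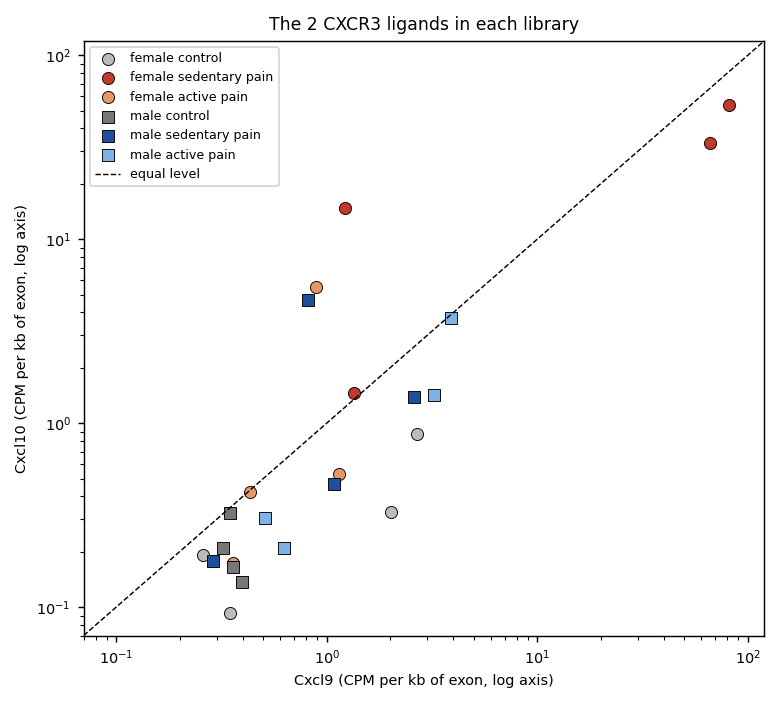
Cxcl10 against Cxcl9 in each of the 24 libraries, in CPM per kb of exon on log axes, with the line of equal level. Most libraries lie under the line, 3 stand well above it (log2 ratios 2.51 to 3.61), and the 2 highest female sedentary pain libraries sit at the upper right, under the line.

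The receptor gene Cxcr3 (ENSMUSG00000050232, chrX:101731535-101734269, minus strand) was near the limit of detection in all but 2 libraries. Female sedentary pain muscle held 17, 7, 258 and 306 counts of Cxcr3, or 0.643, 0.409, 8.37 and 10.8 CPM. Every library of the other groups held at most 17 counts, and the means of those groups ran from 0.143 ± 0.082 CPM (SD, n = 4) in male controls to 0.319 ± 0.202 in male sedentary pain. Its female log2 fold changes were 4.63 ± 1.04 for sedentary pain over control, 0.63 ± 1.11 for active pain over control and -4.00 ± 0.99 between the pain groups. Without the 2 high libraries the first was 1.41 and the last -0.77. In males Cxcr3 did not pass the filter on low counts, so that no fold change was fitted.

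Ccl5 (ENSMUSG00000035042, chr11:83525778-83530518, minus strand) ranged from 0 to 338 CPM. It was at 1.85, 4.85, 158 and 338 CPM in female sedentary pain, at 0.173, 0, 0.703 and 1.80 CPM in female controls, and at 1.03, 0.60, 1.19 and 2.1 CPM in female active pain. The lowest sedentary pain value was just above the highest control. The log2 fold change of Ccl5 was 7.44 ± 1.61 for sedentary pain over control, 0.80 ± 1.46 for active pain over control and -6.63 ± 1.53 between the pain groups. The first fell to 2.24 and the last to -1.41 without the 2 high libraries. Male controls held 1, 4, 8 and 4 counts of Ccl5, against 34, 4, 33 and 39 for the sedentary pain males and 37, 23, 7 and 13 for the active ones. Replicate 2 of male sedentary pain thus stayed among the controls while the other 3 were above them. The male log2 fold changes were 2.89 ± 0.79, 2.47 ± 0.80 and -0.42 ± 0.67, and the last ran from -0.97 without active pain replicate 1 to -0.10 without active pain replicate 3. In females, active pain over control depended on control replicate 4, without which it was -0.30 for Cxcl9, 1.63 for Cxcr3 and 2.03 for Ccl5.

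Ifng (ENSMUSG00000055170, chr10:118441046-118445892, plus strand) itself was counted in 9 of the 24 libraries and with more than 3 counts in only 2 of them. Female sedentary pain replicates 3 and 4 held 78 and 156 counts of Ifng, or 2.53 and 5.51 CPM. Together they held 234 of the 246 Ifng counts of the study. The other 7 libraries with a count held 1 to 3. A library with a count of 0 allows up to 3 counts, which is 0.091 to 0.175 CPM across libraries, for counting error only. Ifng passed no filter and has no fitted change. Its locus also carries Gm49751, an overlapping gene model on the same strand, between which and Ifng reads could be split.

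The receptor chains were present in every library and varied less. Ifngr1 (ENSMUSG00000020009, chr10:19591949-19610229, plus strand) was at 21.8, 23.4, 67.9 and 79.5 CPM in female sedentary pain. Female controls had 18.6, 20.2, 36.8 and 36.9 CPM, and female active pain 24.6, 21.4, 30.2 and 26.2 CPM. Only replicates 3 and 4 of sedentary pain exceeded the highest control. Male libraries ranged from 20.8 to 31.5 CPM in the 3 conditions together. For sedentary pain over control, active pain over control and active over sedentary pain, the female log2 fold changes of Ifngr1 were 0.75 ± 0.41, -0.14 ± 0.40 and -0.89 ± 0.41. The male ones were 0.21 ± 0.14, 0.17 ± 0.14 and -0.04 ± 0.14. Leaving out the 2 high libraries turned the first female value to -0.33 and the third to 0.19.

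Ifngr2 (ENSMUSG00000022965, chr16:91547072-91565623, plus strand) did not follow the 2 high libraries, which were at 92.4 and 123.9 CPM beside 102.2 and 122.2 CPM in replicates 1 and 2. Female controls spanned 78.2 to 122.3 CPM and female active pain 98.7 to 138.6 CPM. Control males had 74.9 to 80.0 CPM, sedentary pain males 69.3 to 92.3 and active males 80.1 to 82.4 CPM. The male active values lay just above the male control values, with a log2 fold change of 0.06 ± 0.10. Female log2 fold changes of Ifngr2 were 0.17 ± 0.17, 0.24 ± 0.17 and 0.07 ± 0.17 in the same order. The remaining male values were 0.00 ± 0.10 for sedentary pain over control and 0.06 ± 0.10 for active over sedentary pain. Per kb of exon, Ifngr2 exceeded Ifngr1 in every library, by 1.03-fold and 1.18-fold in the 2 high libraries and by 1.61-fold to 4.96-fold in the others.

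Ordered by mean level, female sedentary pain came first for every gene but Ifngr2, for which female active pain did. With the larger SD of neighbouring groups as the yardstick, only 2 neighbours in these orders differed by more than it. They were female sedentary pain against male sedentary pain for Cxcl10 (58.1 ± 50.9 against 3.76 ± 4.62 CPM, SD, n = 4) and male active pain against male control for Ifngr2 (81.3 ± 1.07 against 78.1 ± 2.37 CPM). The 2 high libraries held 85.4% of the summed CPM of Cxcl9 over 24 libraries, 69.8% for Cxcl10, 75.9% for Cxcr3, 95.7% for Ccl5 and 95.1% for Ifng. For Ifngr1 and Ifngr2 the share was 20.7% and 9.69%.

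Across all genes, 33.5% of 14511 tested passed an adjusted p of 0.05 in female sedentary pain over control (19.6% higher and 13.9% lower), by edgeR's quasi-likelihood test with Benjamini-Hochberg adjustment. Of the 6 members tested, 4 passed upward there, Cxcl9, Cxcl10, Cxcr3 and Ccl5. In active over sedentary pain of females 11.9% of genes passed (9.41% lower), and the same 4 members passed downward. None of them passed in active over sedentary pain without the filter on low counts, which tested more genes. The count was also 0 without female active pain replicate 1, 2 or 4, and without sedentary pain replicate 3, 4 or both. With the filter on controls alone 1 of 3 passed. Both contrasts are those the genes were chosen with, and a gene that passes the count filter through its high group had to differ, so nothing is read from these counts. Values without overlap between groups were found for Cxcl10 and Ccl5 (15.3% of genes higher in this way) in sedentary pain over control of females. The same held for Cxcl9 in female active against sedentary pain (6.37% of genes lower) and for Cxcl9 and Ifngr2 in active pain over control of males (6.34% of genes higher). The 2 pain groups of a sex share their controls.

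The other genes of the pathway, 75 in 7 lists by role, were largely higher in sedentary pain females. Of 61 tested, 13 passed the filter on low counts only with the pain libraries, which favours genes that were higher there. Counts are therefore read from the 48 that passed it on the 4 control libraries alone, a filter chosen after the data were seen. Of these 48, 36 rose (19.2% of 12959 genes so filtered) and 1, Il12a, fell (13.6% of those genes), with a median log2 fold change of 2.86 beside -0.01 for all genes so filtered. In active pain females against control none of the 48 passed and the median was 0.30. Against sedentary pain, active pain females had 26 lower (8.39% of genes) and 0 higher, with a median of -2.43 beside 0.01. Over all 61 the counts were 48 higher and 1 lower for sedentary pain over control and 34 lower against sedentary pain, from which nothing further is read. Whether the falls passed the threshold depended on a filter: with none, 0 pathway genes passed against sedentary pain, and 174 genes in all in place of 1730. In males none of the 56 tested passed in any comparison. The medians of the 49 male genes that passed on controls alone were 1.11 for sedentary pain and 0.99 for active pain over control, beside -0.006 and -0.0005 for all genes. Values without overlap, higher than control, were found for 11 of these 49 in sedentary pain males (3.19% of genes), for 24 in active pain males (5.44%) and for 19 of the 48 in sedentary pain females (13.5%). Without female sedentary pain replicates 3 and 4, 18 of the 61 passed over control and 0 against active pain. The count of 34 also went to 0 without female active pain replicate 1, 2 or 4 or sedentary pain replicate 3 or 4. The lists were written with earlier results of these data known and are no independent support for the direction.

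Partners of the axis were mostly too low in controls for their count to be read. Of 10 tested, 8 passed upward in sedentary pain females, but 6 of the 10 were tested only through the pain libraries, and of the other 4 Pf4 and Ackr1 rose (19.2% of genes did). Ccl8, a chemokine and among those 6, went from 0.932 ± 0.550 to 49.6 ± 39.0 CPM (SD, n = 4), a log2 fold change of 5.68 ± 0.78. It fell in active against sedentary pain, by 2.40 ± 0.65 on the log2 scale. No p-value is given for genes among those 6. Pf4 and Ackr1, a platelet chemokine and a chemokine-binding receptor of venules, rose over control by 2.47 ± 0.48 and 1.93 ± 0.37 on the log2 scale. Ccl3, Ccl4, Ccr1 and Cxcl11, also among the 6, rose too, the last only to 0.945 ± 0.591 CPM. Dpp4, which trims CXCR3 ligands, and the scavenging receptor Ackr2 did not pass the test, with log2 fold changes of 0.52 ± 0.38 and -0.84 ± 0.47. Ccr3 passed no filter.

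Of 9 tested genes that raise interferon-gamma output, 6 passed upward in sedentary pain females and 1 downward, but 5 (Il18, Il18r1, Il18rap, Il2rb and Ebi3) were tested only through the pain libraries. Of the other 4, Tbx21, a transcription factor gene of type I T cells named after its values were seen, rose and Il12a fell, counts too few to set against the 19.2% and 13.6% of genes that did. The interleukin-18 receptor subunit gene Il18rap rose from 0.154 ± 0.067 to 5.29 ± 4.16 CPM and Il18 itself from 0.696 ± 0.347 to 5.49 ± 4.24 CPM. The log2 fold changes were 5.01 ± 0.88 and 2.95 ± 0.63. No p-value is given for the 5 genes tested only through the pain libraries. Ebi3, a subunit of interleukin-27 and interleukin-35, rose by 4.85 ± 1.0 on the log2 scale. Il2rb, a receptor subunit for interleukin-2 and interleukin-15 on T and NK cells, fell by 4.75 ± 1.05 in active against sedentary pain, with no overlap of values. Il12a, a subunit of interleukin-12, went the other way and fell from 2.01 ± 0.59 to 1.10 ± 0.15 CPM in sedentary pain over control (-0.89 ± 0.28, edgeR adjusted p = 0.0337).

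Signalling genes rose over control in 7 of the 9 that passed the filter on controls alone (19.2% of genes). The other two, the kinase genes Jak1 and Jak2, did not pass the test, at -0.10 ± 0.21 and -0.41 ± 0.26. Stat3, Irf9, Ciita and Irf8 had the smallest p-values of this list. Stat3 rose from 50.9 ± 6.70 to 149.7 ± 50.2 CPM and the interferon response factor gene Irf9 from 7.76 ± 1.80 to 27.8 ± 12.8 CPM. Ciita, the activator of class II antigen presentation genes and tested only through the pain libraries, rose from 0.830 ± 0.621 to 16.8 ± 16.4 CPM, and Irf8 from 4.61 ± 1.48 to 50.2 ± 48.6 CPM. The edgeR adjusted p-values of Stat3, Irf9 and Irf8 lay between 0.00387 and 0.00685. None is given for Ciita, since it was tested only through the pain libraries. Against sedentary pain, 4 of the 9 fell in active pain females (8.39% of genes).

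Of 6 inhibitors of this signalling, all of which passed the filter on controls alone, 4 rose over control (19.2% of genes) and 4 fell in active against sedentary pain (8.39% of genes). Socs3 went from 2.26 ± 0.32 CPM in female controls to 35.6 ± 18.5 in sedentary pain and was at 6.40 ± 5.10 in active pain. Its log2 fold changes were 3.95 ± 0.61 and -2.45 ± 0.56, with edgeR adjusted p of 0.0026 and 0.0328. Ptpn6, a phosphatase of blood cells, rose by 5.16 ± 0.87, Socs1 by 4.10 ± 0.94 and Ptpn2 by 1.01 ± 0.19 on the log2 scale. Ptpn11 and Pias1 did not pass, at -0.52 ± 0.20 and -0.13 ± 0.17.

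Of 22 target genes of interferon-gamma that passed the filter on controls alone, 19 rose (19.2% of genes) and 15 fell in active against sedentary pain (8.39% of genes). With no filter on low counts, no fall of a target gene passed the threshold. Fcgr1, a high-affinity antibody receptor, rose from 0.951 ± 0.475 to 63.0 ± 36.3 CPM (5.99 ± 0.90, edgeR adjusted p = 0.0026). The immunoproteasome subunit gene Psmb10 rose from 16.9 ± 5.59 to 156.8 ± 138.1 CPM, the adhesion gene Icam1 from 3.24 ± 0.25 to 34.5 ± 30.5 and Cd74, the class II invariant chain, from 82.2 ± 45.3 to 1990 ± 2315 CPM. The SD close to the mean in sedentary pain is again that of high and low libraries. Of the other interferon receptors, Ifnar1, Ifnar2 and Il10rb rose by 1.12 ± 0.26, 1.37 ± 0.46 and 1.81 ± 0.42 on the log2 scale, and Ifnlr1 passed no filter. The type I and III interferon genes of the list (Ifnb1, Ifna1, Ifna2, Ifna4, Ifnl2, Ifnl3) had 0 counts in every library.

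**Figure D3:**
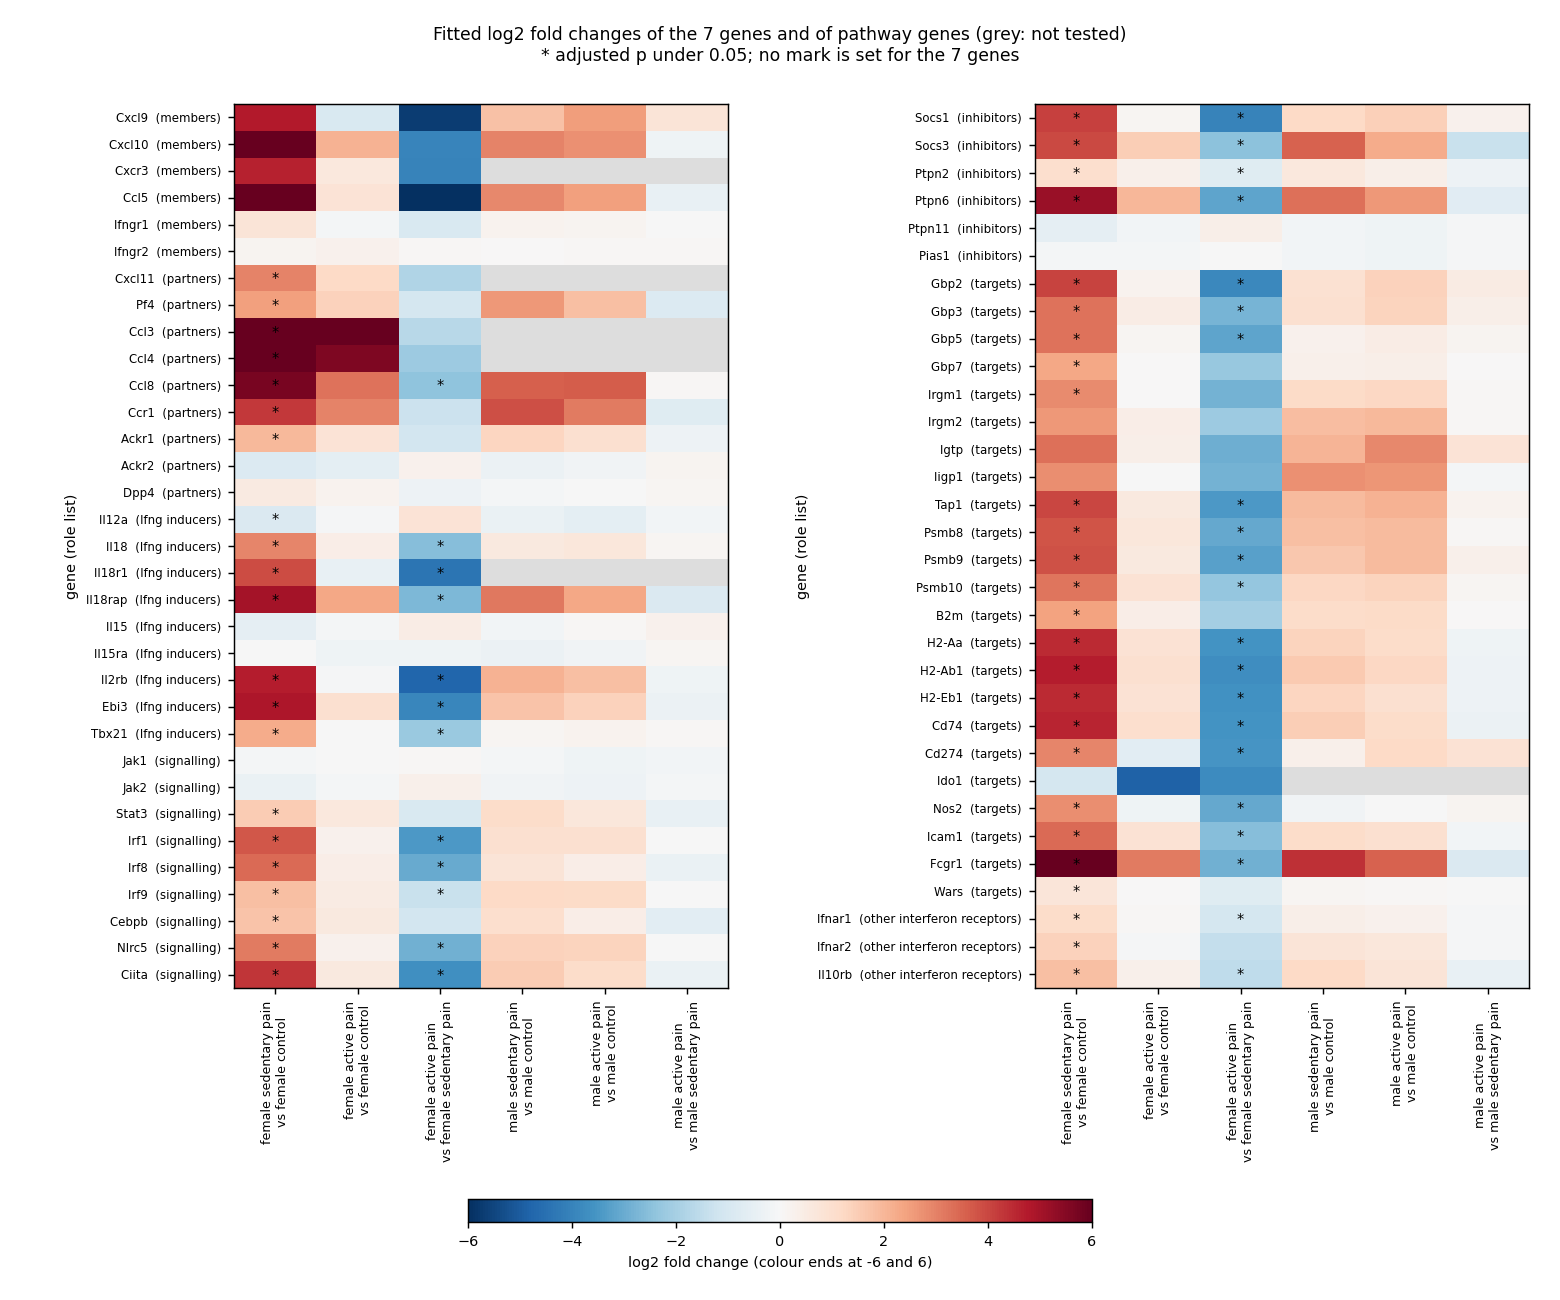
Fitted log2 fold changes of the members (Ifng was not tested) and all but 2 of the tested pathway genes in the 6 comparisons within a sex, with stars for adjusted p under 0.05 outside the members. Red marks higher and blue lower in the group named first; 46 stars mark rises and 1 a fall in female sedentary pain over control, 33 mark falls in female active against sedentary pain, and no star stands in the male columns. Stars also stand on genes tested only through the pain libraries, from which nothing is read.

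No comparison within males passed the threshold for any of 14404 genes by edgeR. At an unadjusted p of 0.05, 1273 genes passed for sedentary pain over control, 1045 for active pain over control and 121 between the pain groups, and DESeq2 called 270, 127 and 0. Whether the changes differed between the sexes was tested for 15103 genes in a joint fit, and 0 passed in each of 3 such differences. Unadjusted, 1446, 307 and 2224 genes passed for sedentary pain over control, active pain over control and active over sedentary pain, and DESeq2 called 15, 3 and 133. Leaving out male sedentary pain replicate 1 and male active pain replicate 2 together gave 591 genes for the sedentary pain difference, and leaving out male sedentary pain replicate 1 alone gave 2174 for the last one. The female changes are therefore not shown by this fit to differ from the male ones. In female active pain over control edgeR called 0 of 14511 genes, against 1020 at an unadjusted p of 0.05 and 125 by DESeq2.

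Summed markers of T cells, NK cells and macrophages were highest in the 2 high libraries, female sedentary pain replicates 3 and 4. Neutrophil sums were not, at 38.8 and 57.2 CPM in these libraries. They reached 252 CPM in female sedentary pain replicate 2 and 299 CPM in male sedentary pain replicate 1. T cell markers (Cd3d, Cd3e, Cd3g, Cd247, Cd2, Cd4, Cd8a, Cd8b1) summed to 4.46, 4.44, 49.2 and 75.8 CPM in female sedentary pain, against 1.05 to 4.06 in female controls and 1.78 to 4.15 in all male groups. NK cell markers (Ncr1, Klrb1c, Klrk1, Klrd1, Nkg7, Gzma, Gzmb, Prf1) summed to 4.31, 10.9, 78.1 and 131.1 CPM against 0.421 to 3.30 in female controls. Macrophage markers (Adgre1, Csf1r, Cd68, Lyz2, Itgam, Cd14, Mrc1) ran from 337 to 3706 CPM against 66.2 to 148.5, again highest in replicates 3 and 4. Female active pain held 158 to 331 CPM, also above every female control. In males the macrophage sums were 49.6 to 101.4 CPM in controls, 100.2 to 626 in sedentary pain and 150 to 359 in active pain. In female sedentary pain over control 7 of 7 macrophage markers rose (19.2% of genes), all of which passed the filter on controls alone. No NK, neutrophil or B cell marker passed that filter, and 1 T cell and 1 dendritic cell marker did, so no count of risen markers is given for these cells. B cell sums were 7.36 and 11.7 CPM in female sedentary pain replicates 3 and 4, and no other library passed 1.98 CPM. Of the lymph node stroma list Ccl21a was at 0 in all 24 libraries, Ccl19 at no more than 4 counts and Glycam1 at no more than 2. The remaining gene of that list, Cxcl13, was counted in every library, with up to 154 counts. The sum of the list was 0.876 to 5.06 CPM in female sedentary pain against 0.260 to 1.22 CPM in female controls. Of 3 endothelial markers 2 fell and of 4 adipocyte markers 3 did (13.6% of genes). The adipocyte sums of female controls were uneven, at 61.6, 36.4, 823 and 424 CPM in replicates 1 to 4. Sedentary pain females held 15.8 to 107.7 CPM, and 0 of the 4 adipocyte markers were without overlap. Among 3 fibroblast markers 1, Col1a1, rose, and among 6 muscle fibre markers 1 fell. These counts are too near the shares of all genes (19.2% higher and 13.6% lower) to be read as a change of the list. The summed fibre markers were nonetheless lowest of all 24 libraries in female sedentary pain replicates 3 and 4, at 89236 and 78273 CPM. Replicates 1 and 2 held 133543 and 156226 CPM and female controls 116537 to 178853 CPM. The part of these cells in the levels of the axis was not tested.

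**Figure D4:**
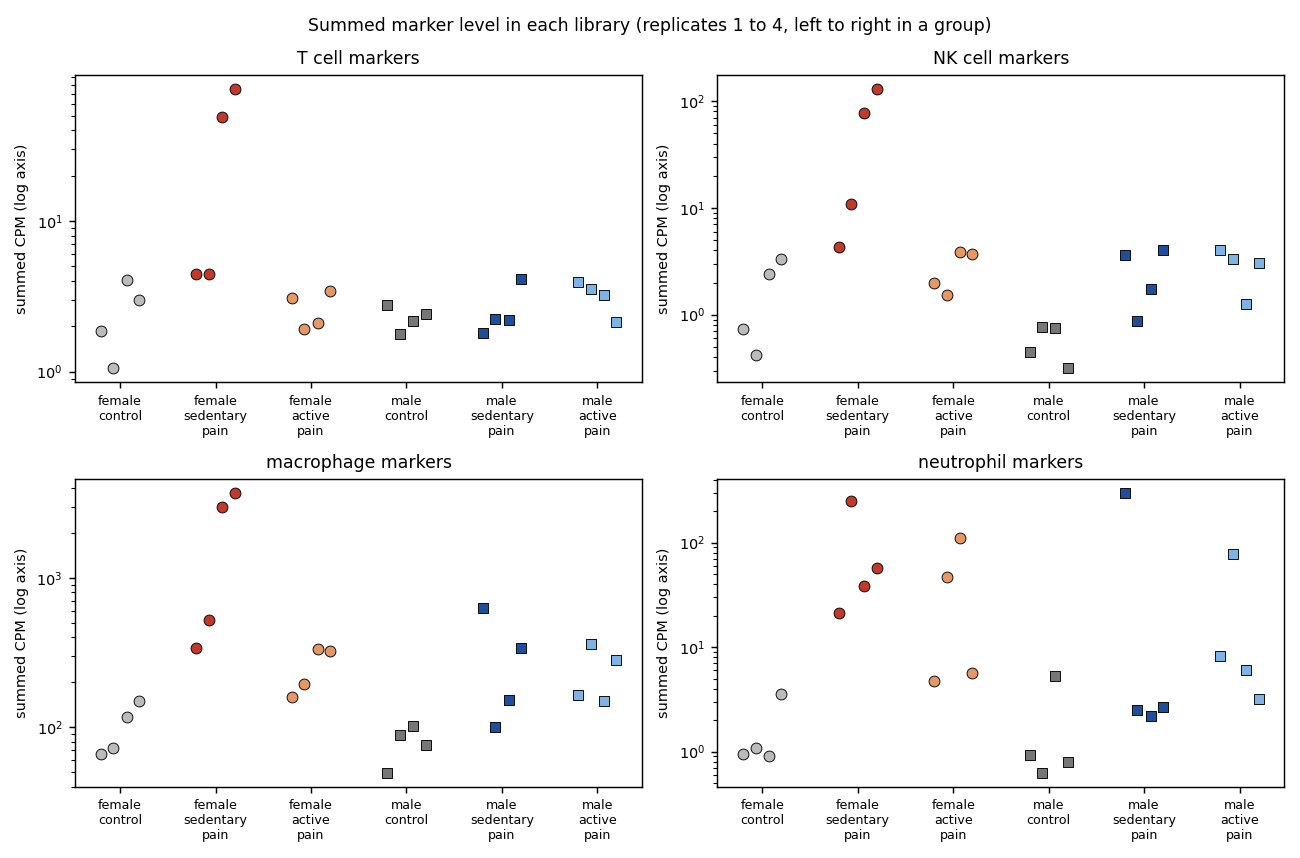
Summed CPM of T cell, NK cell, macrophage and neutrophil markers in each library, on log axes, by group. T cell, NK cell and macrophage sums are highest in female sedentary pain replicates 3 and 4 (T cell sums of 49.2 and 75.8 CPM), whereas the neutrophil sums are highest in male sedentary pain replicate 1 (299 CPM) and female sedentary pain replicate 2 (252 CPM).

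Genes with the order of libraries most like that of Cxcl9 were Trbc2, Serpina3g, Gm12250, Il2rb and Gbp2, with Spearman's rho of 0.93, 0.91, 0.89, 0.89 and 0.88 over 24 libraries among 15097 genes. Trbc2 encodes a constant region of the T cell receptor. For Cxcr3 they were H2-Q5, Naip6, Ms4a4b, Rasgrp1 and Ciita, from 0.87 to 0.83, and for Ifngr1 they were Pygb, Rab3d, Cyp1b1, Papss1 and Sept8, from 0.90 to 0.88. Without the 2 high female libraries these values ranged from 0.91 to 0.77. Several of these genes belong to families with close copies (H2-Q5, Naip6, Serpina3g, Gbp2), whose reads the counting could split. Among the members, Cxcl9 and Cxcl10 had a rho of 0.80 and Cxcl10 and Ccl5 of 0.84, or 0.74 and 0.79 without those libraries. Ifngr1 and Ifngr2 had a rho of 0.02, or -0.12 without them. The points share tissue, condition and sequencing depth, and no p is attached.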

How the data were processed

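Per the labels' protocols, the authors used 0.5 µg of RNA for each TruSeq stranded library and sequenced it on a NovaSeq as 100-base pairs. The deposited files hold raw read counts per Ensembl gene, 1 file per sample. The submitters' processing notes list HISAT2 2.1.0, Salmon 0.9.1, featureCounts and DESeq2 1.24.0, with the builds mm10 and GRCm38.p6, with no role or order, and the strand setting is not given in the sources used here. Samples were grouped by their labels. The genes, lists and the rule for naming genes (up to 4 genes per list with the smallest p in any comparison, and every partner, inhibitor and interferon receptor) were chosen with earlier results of these data known. The values of 2 list genes are not reported here, though the counts over the lists include them.

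Counts were scaled by TMM, filtered with filterByExpr (minimum count 10) and tested with edgeR 4.0.16 (robust quasi-likelihood F test, two-sided) in R 4.3.3, in each sex alone with 12 samples, and in all 24 for differences between the sexes. P-values were adjusted by Benjamini-Hochberg over all genes tested, with a threshold of 0.05. The SE of a log2 fold change is its size divided by the square root of the F value of that test. It thus rests on the spread estimated over all 12 samples of a sex and not on 4 libraries a group alone. The scripts were tested on simulated data. Libraries of 17612139 to 34039699 counts limit genes of a few counts. Positions came from GENCODE M21 and promoter windows from RefSeq. Alternatives were RLE scaling, DESeq2 1.42.0, no filter, a mean count of at least 50, a replicate block, 1 fit of all 24 samples, and leaving out each library. Filtering on the control libraries alone, and leaving out 2 female libraries (sedentary pain replicates 3 and 4) or 2 male libraries (sedentary pain replicate 1 and active pain replicate 2) were chosen after seeing the data.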

Additional observations from a re-analysis of the deposited data

Results flagged for a closer look

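In 66 groups of 4 libraries (the members' CPM and the summed markers of T cells, NK cells, macrophages and neutrophils), the highest or lowest library was checked for a gap to the others that took up most of the group's range. It did in 14 groups. Chance gives this in about 1 of 20 groups of continuous values, a rate that does not apply to the 4 Ifng groups among them, in which a count in a single library meets the measure by itself, and holds poorly for other groups of few counts. Cxcl10 was at 12.3 CPM in female active pain replicate 3, beside 0.392 to 1.19 CPM in the others. Cxcr3 was apart at 0.459 CPM in female control replicate 4 and 0.619 in male sedentary pain replicate 4, and low at 0.171 in male active pain replicate 3. These Cxcr3 values stand on 15, 17 and 5 counts. Ccl5 was low at 0.134 CPM in male sedentary pain replicate 2, where the others held 1.37 to 1.42. Ifng was flagged at 0.0917 CPM in female control replicate 4, 0.0608 in female active pain replicate 4, 0.0808 in male sedentary pain replicate 1 and 0.0800 in male active pain replicate 2, each on 2 or 3 counts with the other libraries of its group at 0. Neutrophil markers stood apart in female control replicate 4 at 3.58 CPM, female sedentary pain replicate 2 at 251.9, male control replicate 3 at 5.29, male sedentary pain replicate 1 at 298.7 and male active pain replicate 2 at 78.0. The 2 high libraries of female sedentary pain were not apart by this measure, since each had the other beside it.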

How the results depend on the processing

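Moves of the members' fold changes were set against the larger of the 2 groups' SDs of log2 CPM. High and low libraries in a group widen this SD, so a large move can stay under it. Cxcl10 between the male pain groups did so, from -0.26 to 1.05 without sedentary pain replicate 1. Of 642 alternative values of the members' 33 fold changes, 632 moved by less than 1 SD and 9 by more. The other, Cxcl9 in female sedentary pain over control, was the 1 value past the threshold that changed sign, to -0.066 without female sedentary pain replicates 3 and 4. Values of 8 fold changes that had not passed changed sign in 19 cases, 3 of them by 1 SD or more: Ifngr1 in female sedentary pain over control (0.75 to -0.33) and active over sedentary pain (-0.89 to 0.19) without the same libraries, and Cxcl10 in female active pain over control (2.09 to -0.02) without active pain replicate 3. Without these libraries 1440 genes passed for that comparison (of 4867) and 0 for active over sedentary pain (of 1730), and 18 and 0 pathway genes did (of 49 and 34). DESeq2 called 3010 genes for female active over sedentary pain, 125 for female active pain over control (5 in the pathway), 270 and 127 for male sedentary and active pain over control (10 in the pathway in each), and 15, 3 and 133 for the sex differences of sedentary pain over control, active pain over control and active over sedentary pain. With the filter on controls alone 4249 and 1383 genes passed for female sedentary pain over control and active over sedentary pain, and 37 and 26 pathway genes. Without a filter on low counts 174 genes and 0 pathway genes passed for female active over sedentary pain. Without male sedentary pain replicate 1 and male active pain replicate 2, 2 and 8 genes passed for male sedentary and active pain over control and 591 for the sex difference of sedentary pain. Leaving out each library gave 2486 to 6674 genes for female sedentary pain over control and 39 to 55 in the pathway. It gave 0 to 4316 genes and 0 to 47 in the pathway for female active over sedentary pain, with 0 genes without active pain replicate 1, 2 or 4 or sedentary pain replicate 4 and 3 without sedentary pain replicate 3. For the sex differences it gave 0 to 18, 0 to 1 and 0 to 2174, the last without male sedentary pain replicate 1 and 622 without female sedentary pain replicate 1. The cause was not tested. The replicate numbers did not pair the samples (11 of 48 cases correlated best with their own number), and the fit with the replicate block gave 3739 genes for female sedentary pain over control, 1629 for active over sedentary pain and 0 elsewhere. Genes with a few counts, Ifng and male Cxcr3 among them, are limited by depth.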
